A study of Rattus norvegicus with 6 samples.

Results

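The theta, kappa, omega and microsomal glutathione transferases were followed in the renal cortex of rats given a brominated anthraquinone. The group was defined by 8 gene symbols, Gstt1, Gstt2, Gstt3, Gstk1, Gsto1, Mgst1, Mgst2 and Mgst3, and its probes were those whose accession is a RefSeq transcript of one of these genes. Of the 8 genes, 7 had a probe and all 7 were tested, among 12007 genes tested in all. They were read by 10 of 61657 probes: 3 for Mgst3, 2 for Gstt2 and 1 for each of the others. Gstt3 matched no probe and was not analysed here. All 10 probes were well above background on the 3 arrays of each group, and 0 were saturated.

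The samples were renal cortex from male Sprague-Dawley (Crl:CD(SD)) rats, 5 weeks old when bought, with no genetic alteration given in the labels. A control group of 3 rats received corn oil for 4 weeks, and 3 rats received 1-amino-2,4-dibromoanthraquinone, called ADBAQ here, at 1000 mg/kg/day for 4 weeks. ADBAQ is an anthraquinone with bromine atoms that serves as an intermediate for dyes. Total RNA of each rat was read with 1 dye on its own Agilent array, and the comparison asked how transcript levels differed between ADBAQ and the vehicle. Levels are given as log2 of the probe's signal minus log2 of the 75th percentile of that array, so that a level of 0 is the 75th percentile and a difference of 1 is a doubling. The level of one probe cannot be set against that of another, because probes differ in how brightly they report.

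On the control arrays the 75th percentile of the signal was 1126 to 1177 units and on the treated arrays 1279 to 1306 units, and the share of probes well above background was 69.0% to 72.3%. With 3 arrays per group, the number of arrays limits the precision. The control rats were read on 1 slide in 1 scan and the treated rats on a second slide in a second scan, so the effect of slide or scan and that of ADBAQ cannot be told apart in any value below. The tissue carried its defining markers: 8 of 8 proximal tubule markers were measured, and the adrenal markers Cyp11b1, Cyp11b2 and Star were not well above background on all arrays of either group. The summed level of the 8 proximal tubule markers, as a multiple of the 75th percentile, was 1938 to 1951 on the corn oil arrays and 1770 to 1822 on the ADBAQ arrays. Such a sum is weighted towards the brightest probes, here that of Miox (log2 difference -0.21). Cubn (0.11) and Slc22a8 (0.041) had positive differences, and the other proximal tubule markers negative ones. The 3 red cell markers Hbb, Alas2 and Hemgn summed to 159.7 to 175.5 in corn oil and 317.2 to 367.7 in ADBAQ, and all 3 passed the test as higher. The inner medulla markers Slc14a2 and Aqp4 summed to 0.407 to 0.635 in corn oil and 0.807 to 0.928 in ADBAQ, with 0 of 2 past the test. The sums of the thick limb and distal tubule, collecting duct, podocyte, leukocyte and liver markers overlapped between the groups. The part of these shifts in the values of the transferases was not tested. These are bulk samples, in which fewer cells of a type and less RNA per cell cannot be told apart.

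Glutathione transferases join the tripeptide glutathione to electrophilic compounds, which makes them more soluble and marks them for export. The alpha, mu, pi, theta and omega classes are soluble enzymes that share one fold. Theta enzymes such as Gstt1 act on small halogenated compounds and epoxides through a serine rather than a tyrosine. The omega enzyme Gsto1 has a cysteine in its active site and works mainly as a thioltransferase and dehydroascorbate reductase. Gstk1, the kappa enzyme, is unrelated in sequence, resembles bacterial disulfide isomerases and resides in mitochondria and peroxisomes. The microsomal enzymes Mgst1, Mgst2 and Mgst3 are small membrane proteins of yet another family, which also includes leukotriene C4 synthase. The kidney, and its proximal tubule above all, takes up glutathione conjugates and processes them to mercapturates.

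Upstream sequences are shown for Mgst3, the member with the smallest p-value, for Mgst1, its membrane relative, and for Gstp1, a pi-class gene outside the group that rose in these samples and holds matches to both motifs searched. Of the 8 members, 5 have an entry in the RefSeq promoter table (assembly GRCr8): Gstt3, Gstk1, Gsto1, Mgst1 and Mgst3. The 250 bases before the annotated start are printed 5′ to 3′ for Mgst3 (chr13:82080296-82080545, minus strand), Mgst1 (chr4:172760680-172760929, plus strand) and Gstp1 (chr1:210769706-210769955, minus strand). Capitals mark matches to TGACNNNGC, the core of the antioxidant response element, and to GCGTG, the core of the xenobiotic response element, each searched on both strands.
Mgst3: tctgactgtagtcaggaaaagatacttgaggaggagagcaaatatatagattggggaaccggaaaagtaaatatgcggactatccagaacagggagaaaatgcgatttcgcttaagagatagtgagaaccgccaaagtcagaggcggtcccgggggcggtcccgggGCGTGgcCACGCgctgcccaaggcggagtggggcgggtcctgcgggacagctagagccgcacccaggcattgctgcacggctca
Mgst1: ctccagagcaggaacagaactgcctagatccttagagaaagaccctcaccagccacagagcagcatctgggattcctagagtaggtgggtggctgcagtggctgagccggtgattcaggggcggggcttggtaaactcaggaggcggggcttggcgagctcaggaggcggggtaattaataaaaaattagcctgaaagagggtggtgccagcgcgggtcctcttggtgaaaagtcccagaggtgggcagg
Gstp1: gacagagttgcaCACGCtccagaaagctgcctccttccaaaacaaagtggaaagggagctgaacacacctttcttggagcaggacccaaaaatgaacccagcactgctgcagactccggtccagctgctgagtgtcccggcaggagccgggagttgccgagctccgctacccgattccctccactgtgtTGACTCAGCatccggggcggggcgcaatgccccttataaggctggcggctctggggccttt

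The antioxidant core TGACNNNGC occurred in 0 of the 5 members' windows and in 10.1% of all 33469 windows of 250 bases. Gstp1 holds 1 match, spelled TGACTCAGC. The other genes outside the group that rose and are described below did not all hold one: Gstm1 and Abcc4 have 0 matches, like the members, and Gsta3 has 1 in the window of one annotated start and 0 in that of its other start. The xenobiotic core GCGTG occurred in Mgst3 alone among the 5 members, with 2 matches that face each other on opposite strands, and in 25.9% of all windows. Gstp1 also holds 1 match to it, written CACGC on the strand shown. Of the other genes that rose, Abcc4 has 2 matches, as many as Mgst3, and Gstm1 has 0. Gsta3 has 1 in the window without the antioxidant match and 0 in its other window. These are letters in a window of fixed length, and nothing about binding was measured.

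None of the 7 members passed the test in either direction. Their differences, ADBAQ minus corn oil, were small: 6 of the 7 lay between -0.12 and 0.13 on the log2 scale, and Mgst3, a microsomal glutathione transferase and peroxidase, differed by -0.36. The median over the 7 was 0.012, and over all genes tested it was -0.011. The test was limma's moderated fit over all 12007 genes with Benjamini-Hochberg adjustment at 0.05. It called 0 members higher and 0 lower, where the same rule called 0.291% of all genes (35 genes), 0.225% of them as higher and 0.0666% as lower. Leaving out corn oil replicate 1 lowered that background count of 35 to 16, and leaving out ADBAQ replicate 2 lowered it to 9. The count of members was 0 with each of the 6 arrays left out in turn. With fewer arrays a call is harder to reach, so a count already at 0 says little there. At an unadjusted p under 0.05, 1 member was lower (Mgst3) and 0 were higher, against 10.5% and 8.94% of all genes (19.4% in either direction). Positive values were found for 4 members and negative values for 3.

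**Figure D1:**
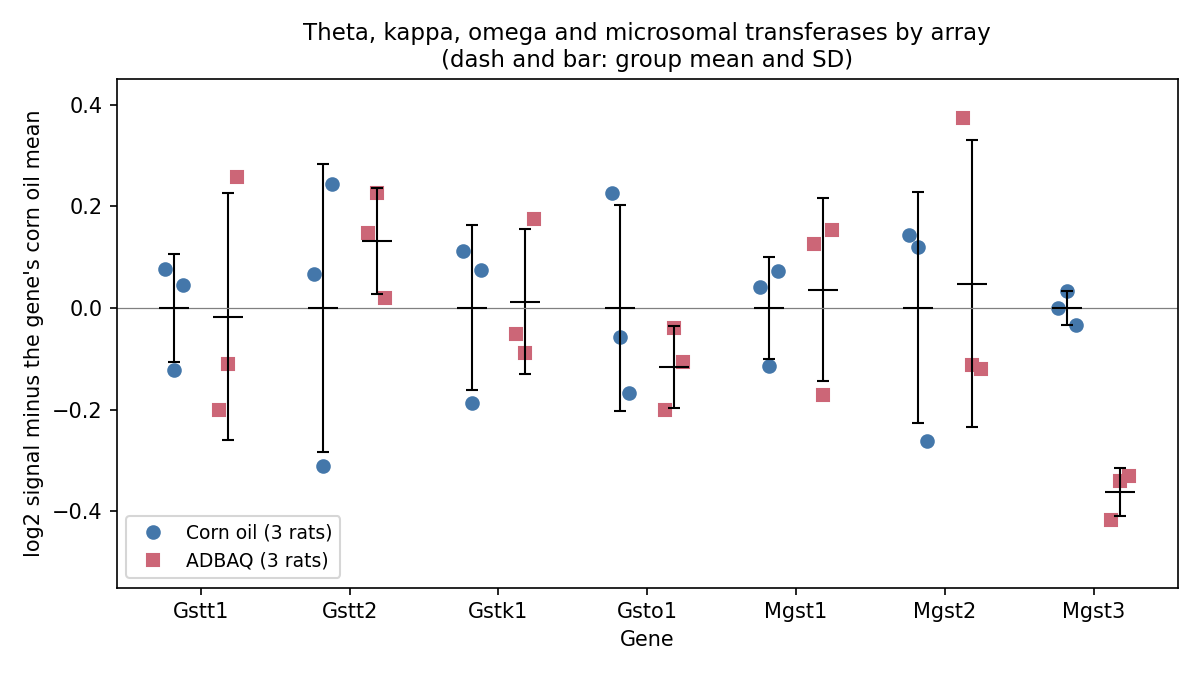
Level of each of the 7 tested genes on each array, as log2 signal minus that gene's corn oil mean. Circles are the 3 corn oil rats, squares the 3 ADBAQ rats, and dashes with bars the group mean and SD; the groups overlap for 6 genes and are apart for Mgst3, whose ADBAQ mean lies 0.36 below the corn oil mean.

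The theta genes lie in one cluster on rat chromosome 20, in the RefSeq order Gstt2, Rps28-ps4, Gstt4, Gstt1 and Gstt3. Gstt1, which conjugates small halogenated hydrocarbons, had levels of 3.51, 3.31 and 3.47 in corn oil and 3.23, 3.32 and 3.69 in ADBAQ. Its lowest and its highest array were both ADBAQ arrays, so the corn oil values lie inside the range of the treated rats. The difference was -0.017 ± 0.14 (SE, n = 3 per group, limma adjusted p = 0.95), and its sign was positive after quantile normalization (0.028) and without scaling (0.15). Leaving out the scaling shifts every gene by 0.16, and relative to the median of all genes Gstt1 was at -0.0067 with and without it, and at 0.021 after quantile normalization. With single arrays left out, the negative sign was kept in 2 of 6 fits.

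Gstt2, a theta enzyme with activity towards sulfate esters, was read by 2 probes. The brighter one gave 2.97, 2.59 and 3.15 in corn oil and 3.05, 3.13 and 2.92 in ADBAQ. Corn oil replicate 2 was the lowest of the 6 arrays and corn oil replicate 3 the highest, with every ADBAQ value between them. The difference was 0.13 ± 0.15 (SE, limma adjusted p = 0.67). The second probe gave 1.39, 0.98 and 1.62 in corn oil and 1.37, 1.79 and 1.51 in ADBAQ, a difference of 0.23 ± 0.19 (SE, limma adjusted p over all probes = 0.56). Both probes put corn oil replicate 2 lowest, and on neither were the groups apart. Whether either theta transcript's probes also bind other theta transcripts was not tested. Gstt4, a further theta gene, had a probe that was not well above background on all arrays of either group and was not tested.

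Within the arrays, the log2 ratio of Gstt1 to Gstt2 changed by -0.15 between corn oil and ADBAQ. That change was smaller than the SD of the ratio among the 3 corn oil arrays (0.19) and among the 3 ADBAQ arrays (0.34). An exact two-sided permutation test gave p = 0.6, or 0.8 after adjustment over the 4 ratios computed within the theta and microsomal classes. With 3 arrays against 3 there are 20 splits, and 0.1 is the smallest p such a test can give.

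Gstk1, the kappa enzyme of mitochondria and peroxisomes, had levels of 3.33, 3.03 and 3.29 in corn oil and 3.16, 3.13 and 3.39 in ADBAQ. Both groups span nearly the same range, and the lowest array was again corn oil replicate 2. The difference was 0.012 ± 0.11 (SE, limma adjusted p = 0.96), with a 95% interval of -0.27 to 0.29.

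Gsto1, the omega thioltransferase and dehydroascorbate reductase, had levels of 4.73, 4.45 and 4.34 in corn oil and 4.31, 4.47 and 4.40 in ADBAQ. Corn oil replicate 1 stood above the other 5 arrays, which lay close together. The difference was -0.12 ± 0.11 (SE, limma adjusted p = 0.61), and without scaling between arrays, which shifts all genes alike, it was 0.047. Relative to the median gene it was -0.10 under both scalings. Leaving out corn oil replicate 1 brought it to -0.0028. Its relative Gsto2 had a difference of -0.45 ± 0.19 (SE, limma adjusted p = 0.26) with overlapping groups. Gsto2 is given here as the other omega gene and was chosen after its value was seen.

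Of the microsomal genes, Mgst1 and Mgst2 had differences under 0.05 on the log2 scale and Mgst3 the largest of the 7 members. Mgst1, an abundant membrane enzyme of the endoplasmic reticulum and outer mitochondrial membrane with peroxidase activity, had levels of 3.97, 3.82 and 4.01 in corn oil and 4.06, 3.76 and 4.09 in ADBAQ. Replicate 2 was the lowest array of both groups, and the groups overlap. The difference was 0.036 ± 0.11 (SE, limma adjusted p = 0.88), with a 95% interval of -0.23 to 0.31.

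Mgst2, which can also make leukotriene C4, had levels of -4.59, -4.61 and -4.99 in corn oil and -4.36, -4.84 and -4.85 in ADBAQ. Its signals were dim, 35.4 to 63.8 units after the scanner software had subtracted the background, although the probe was scored well above background on all 6 arrays. The highest array was ADBAQ replicate 1 and the lowest corn oil replicate 3, and the groups overlap. The difference was 0.047 ± 0.18 (SE, limma adjusted p = 0.90), and this was the largest standard error of the 7 members.

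Across these 6 genes the standard errors ran from 0.11 to 0.18, against a median of 0.094 over all genes tested. The 95% intervals of the 6 differences lay within -0.40 and 0.50, so the largest fold that any of them holds is 1.42. Their adjusted p-values ran from 0.61 to 0.96. A p that misses the threshold does not show that a gene was the same in both groups, and the intervals give the sizes that these arrays leave possible. Corn oil replicate 2 was the lowest corn oil array for 4 of the 6 genes: Gstt1, Gstt2, Gstk1 and Mgst1.

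Mgst3 was lower on every ADBAQ array than on every corn oil array. Its brightest probe gave 7.65, 7.69 and 7.62 in corn oil and 7.24, 7.31 and 7.32 in ADBAQ. The SD was 0.034 among the corn oil arrays and 0.047 among the ADBAQ arrays (n = 3 each), well below the gap between the groups. The difference was -0.36 ± 0.056 (SE), 1.29-fold lower in ADBAQ, with a 95% interval of -0.50 to -0.22. The unadjusted limma p was 7.1e-04, rank 119 among the 12007 genes, and the adjusted p of 0.072 missed the threshold. An exact two-sided permutation test gave p = 0.1, the smallest it can give.

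Mgst3 was the 1 member of 7 whose groups did not overlap as lower, and 0 did so as higher. Among all genes, 27.6% had groups that were apart, 14.8% as lower and 12.7% as higher, so a single gene of 7 is close to the background share. In size, the difference of Mgst3 was larger than that of 88.1% of all genes tested, whose median absolute difference was 0.13.

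The other Mgst3 probes gave values on the same side. The second read 6.84, 6.81 and 6.81 in corn oil and 6.47, 6.57 and 6.60 in ADBAQ, a difference of -0.27 ± 0.063 (SE, limma adjusted p over all probes = 0.13). The third read 5.88, 5.999 and 5.90 in corn oil and 5.57, 5.67 and 5.71 in ADBAQ, a difference of -0.27 ± 0.070 (SE, limma adjusted p over all probes = 0.15). In the same fit over probes the brightest had an adjusted p of 0.091. On all 3 probes the groups were apart, and ADBAQ replicate 1 was the lowest array. The 3 probes read the same RNA of the same 6 rats and are not independent samples. Among all 42256 probes tested, 14.2% had groups apart as lower, and 0.248% passed the test, 0.0639% as lower.

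**Figure D2:**
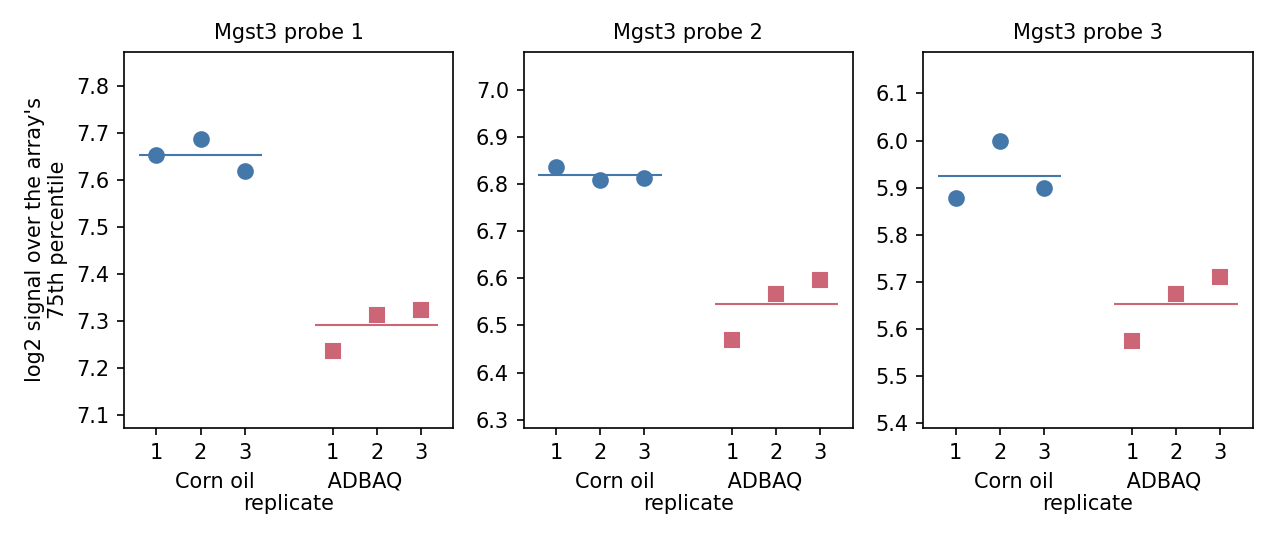
Level of Mgst3 on each array as read by its 3 probes, 1 probe per panel, as log2 signal minus log2 of the array's 75th percentile. Circles are corn oil rats, squares ADBAQ rats and lines group means; on each probe all 3 ADBAQ arrays lie below all 3 corn oil arrays, by 0.36, 0.27 and 0.27 in the means.

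The call for Mgst3 depended on the background correction and the variance model. It passed with normexp background correction (-0.43, limma adjusted p = 0.034) and when limma's variances were made robust and given an intensity trend (-0.36, limma adjusted p = 0.029). Those settings called 1.21% and 1.30% of all genes. With each of the 6 arrays left out in turn its difference stayed between -0.38 and -0.33, with adjusted p-values of 0.14 to 0.23. Without scaling between arrays the difference was -0.20, while the median of all genes moved from -0.011 to 0.15. That setting shifts every gene by 0.16, so the distance of Mgst3 from the median gene, 0.35 below it, could not change.

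**Figure D3:**
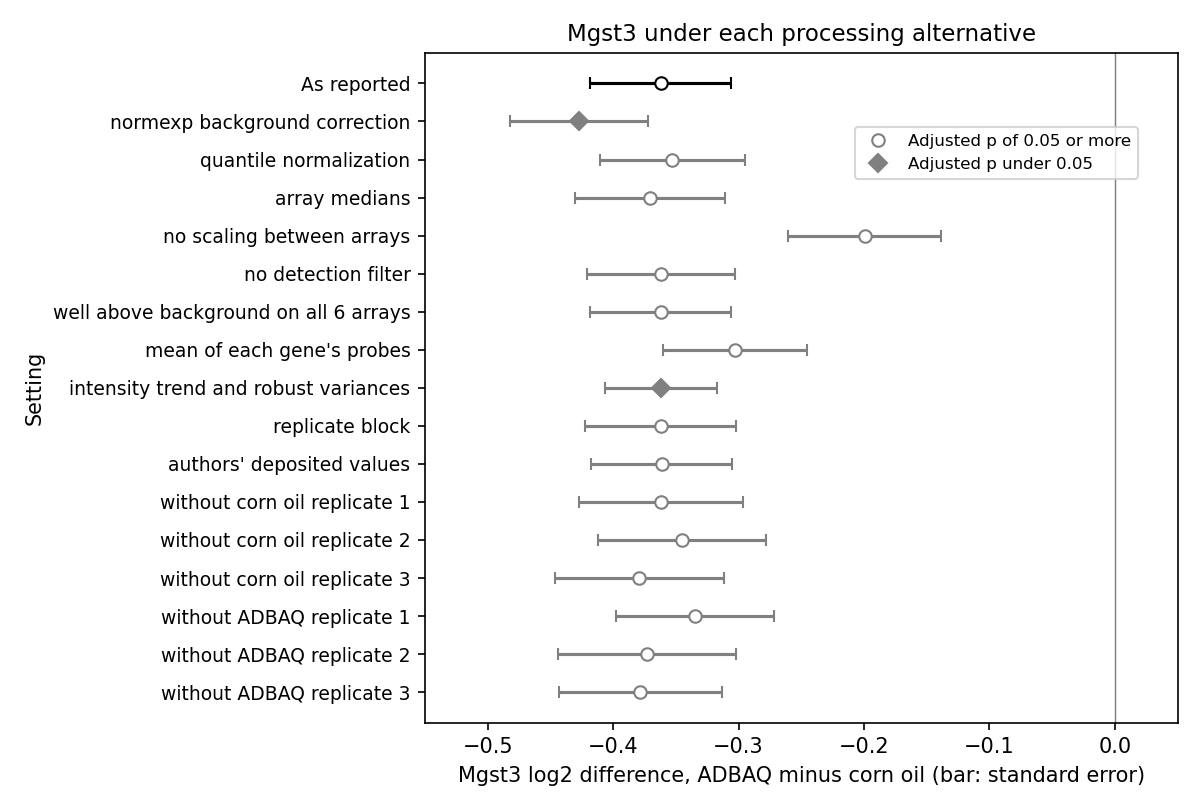
Difference of Mgst3, ADBAQ minus corn oil on the log2 scale, under the reported processing and each of 16 alternatives, with bars for the standard error. Filled diamonds mark the settings with an adjusted p under 0.05, normexp and the trend with robust variances; the value is negative in all of them and nearest to 0 without scaling between arrays (-0.20).

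Of the 151 tested genes whose mean level was above 7, as that of Mgst3 was, the median difference was -0.075 and 51 (33.8%) had groups apart as lower, where 14.8% of all genes did. Groups were apart as higher for 14 (9.27%) of the 151 and for 12.7% of all genes. Of these genes 3 had a lower difference than Mgst3: Mt1 (-0.80) and Mt2A (-0.73), the metallothioneins, and Hadh (-0.46), an enzyme of mitochondrial fatty acid oxidation. These were picked by that limit on brightness, which was set after the data were seen. The 8 proximal tubule markers had a median difference of -0.11, and 0 passed the test. The part of either in the value of Mgst3 was not tested.

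Against Mgst3 on the same arrays, the log2 ratio of Mgst1 changed by 0.40 and that of Mgst2 by 0.41, both exact two-sided permutation p = 0.1 and 0.2 after adjustment over the 4 ratios. Since 0.1 is the smallest p of this design, these ratios could not pass. They mostly restate the difference of Mgst3 (-0.36) and are not a separate result, as Mgst1 differed by 0.036 and Mgst2 by 0.047. The ratio of Mgst1 to Mgst2 changed by -0.011 (exact permutation p = 0.9). A ratio within an array is not changed by multiplying that array by a constant.

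Relatives of the microsomal genes in the same membrane protein family had negative differences of unlike size. Alox5ap, which presents arachidonic acid to 5-lipoxygenase, had a difference of -0.35 ± 0.14 (SE, limma adjusted p = 0.24). Its groups were narrowly apart, with the lowest corn oil array at -2.91 and the highest ADBAQ array at -2.94. Ltc4s, the leukotriene C4 synthase, had one of -0.52 ± 0.41 (SE, limma adjusted p = 0.52). Ptges, an inducible prostaglandin E synthase, had one of -0.061 ± 0.16 (SE, limma adjusted p = 0.86). These 3 genes are given as family relatives and were chosen after their values were seen, and 0 of them passed the test.

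By the array profile, each gene's 6 levels centred on its own mean, the genes outside the lists nearest to Mgst3 were Prpf38a, a splicing factor, Bcl9l, a cofactor of beta-catenin, and Emc8, a subunit of the complex that inserts membrane proteins into the endoplasmic reticulum. Their root mean square distances over the 6 arrays were 0.019, 0.033 and 0.035 on the log2 scale. Their own differences were -0.33, -0.35 and -0.36, with limma adjusted p-values of 0.077, 0.085 and 0.075. Genes picked for a profile near that of Mgst3 have differences near its own, so these values are only a description.

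Among glutathione transferases of other classes, Gstm1, Gstp1 and Gsta3 rose. The list of 22 other transferases and membrane relatives had 18 tested genes, of which 3 rose, 0 fell and 15 did not pass, against 0.225% of all genes called higher and 0.0666% called lower. Their median difference was 0.13, and 13 of the 18 were positive. At an unadjusted limma p under 0.05, 8 of the 18 were higher and 1 was lower, against 8.94% and 10.5% of all genes. Groups were apart as higher for 8 and as lower for 1, against 12.7% and 14.8% of all genes. Gstm1, a mu-class enzyme, had levels of 1.43, 1.71 and 1.72 in corn oil and 5.32, 4.00 and 4.90 in ADBAQ. The difference was 3.12 ± 0.33 (SE, 8.70-fold, limma adjusted p = 0.038). Gstp1, the pi-class enzyme, had levels of 5.65, 5.75 and 6.11 in corn oil and 7.83, 7.80 and 7.97 in ADBAQ. The groups are far apart, and the difference was 2.03 ± 0.13 (SE, 4.07-fold, limma adjusted p = 0.0076). Gsta3, an alpha-class enzyme, differed by 0.79 ± 0.063 (SE, limma adjusted p = 0.012). Mu genes and alpha genes have near-identical copies, and which copy a probe reads is uncertain.

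The 3 calls were sensitive to the number of arrays. That of Gstm1 was lost with any 1 array left out except ADBAQ replicate 2, with adjusted p-values of 0.072 to 0.14, and it was also lost without the detection filter (limma adjusted p = 0.090). That of Gsta3 was lost with any 1 array left out except ADBAQ replicate 3 (limma adjusted p = 0.052 to 0.083). That of Gstp1 was lost without ADBAQ replicate 2 (limma adjusted p = 0.051). The differences themselves stayed between 2.83 and 3.49 for Gstm1, 1.93 and 2.16 for Gstp1 and 0.74 and 0.82 for Gsta3.

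**Figure D4:**
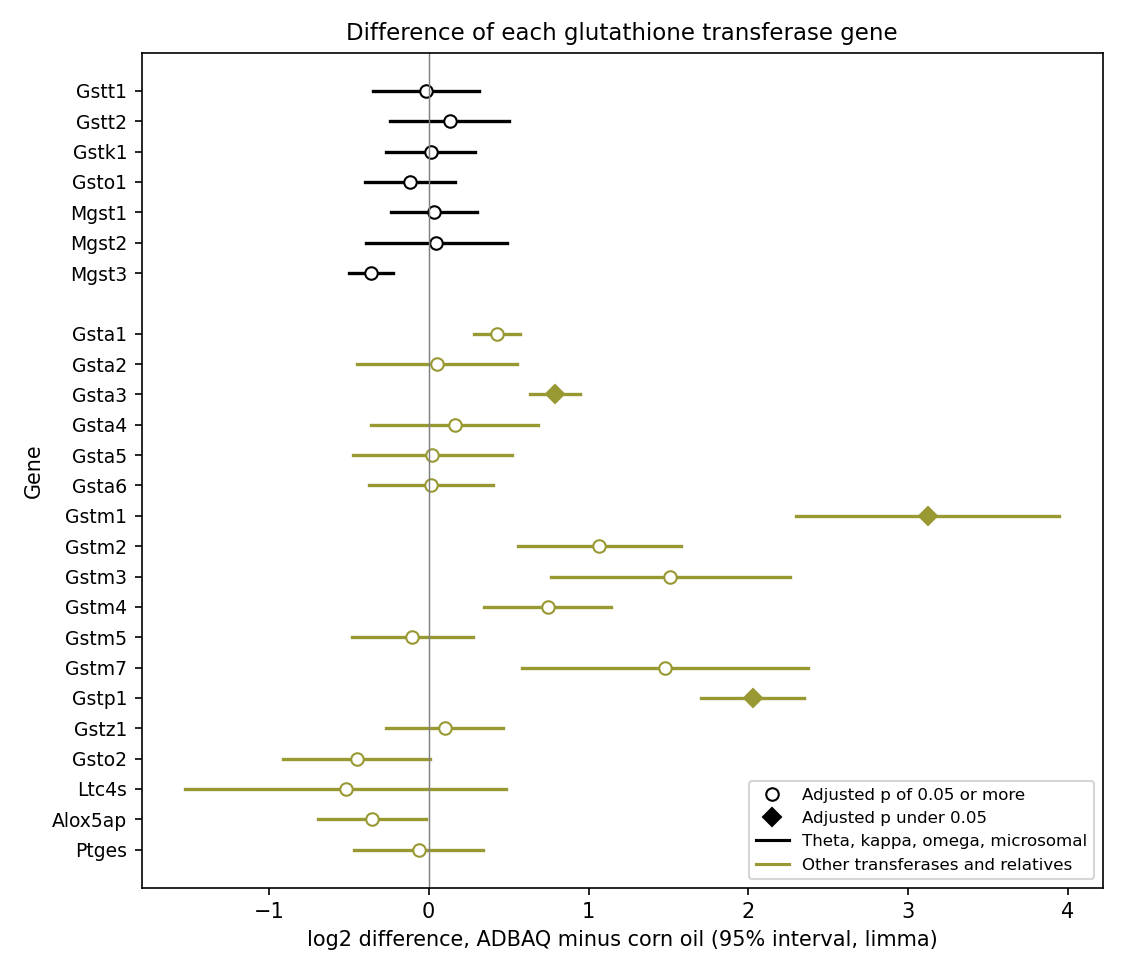
Difference of each tested glutathione transferase gene, ADBAQ minus corn oil on the log2 scale, with its 95% interval from limma. The upper block holds the 7 theta, kappa, omega and microsomal genes and the lower block the 18 other transferases and relatives; filled diamonds mark an adjusted p under 0.05, which Gsta3, Gstm1 and Gstp1 reached.

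The supply and recycling of glutathione, the substrate these enzymes share, showed 0 calls. Of 14 genes listed and tested, 0 were higher and 0 lower, and the median difference was -0.061. At an unadjusted p under 0.05, 1 was higher and 4 were lower, against 8.94% and 10.5% of all genes. The smallest p-values belonged to Gpx1, the cytosolic glutathione peroxidase (-0.35 ± 0.064 SE, limma adjusted p = 0.097), and Glrx, a glutaredoxin that removes glutathione from proteins (-0.41 ± 0.087 SE, limma adjusted p = 0.12). Gpx1 passed with an intensity trend and robust variances (limma adjusted p = 0.042).

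Genes that turn conjugates into mercapturates or export them numbered 15, all tested, with a median difference of -0.056. Of these 1 rose and 0 fell, against 0.225% of all genes called higher and 0.0666% called lower. At an unadjusted limma p under 0.05, 2 of the 15 were higher and 3 lower, against 8.94% and 10.5% of all genes. Groups were apart as higher for 2 and as lower for 4, against 12.7% and 14.8% of all genes. Abcc4, an efflux transporter of organic anions and conjugates, had levels of 2.38, 2.41 and 2.52 in corn oil and 3.97, 3.85 and 3.56 in ADBAQ. The difference was 1.36 ± 0.12 (SE, 2.56-fold, limma adjusted p = 0.016). It missed the threshold with any 1 corn oil array or ADBAQ replicate 2 left out (limma adjusted p = 0.057 to 0.10).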

How the data were processed

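Renal cortex RNA of 6 rats was read on 1-colour Agilent arrays of 62976 spots. Per the file headers, the software Agilent Feature Extraction, version 10.7.1.1, gave the deposited intensity values: a background-subtracted processed signal, and the median signal and local background intensity used for an alternative. Other columns used are flags per spot, per the file headers. The submitters' processing notes name version 10.7. The authors' deposited value table was set against these signals: in each column the ratio of signal to value is constant, so the values are a linear ratio scaled per array, not centred, with column medians of 0.111 to 0.114. That constant was 0.99999 to 1.0009 times the array's 75th percentile of the processed signal.

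Left out were 1319 control spots and the 73 probes that the software marked as outliers on at least 1 array. The log2 signal minus the array's 75th percentile was tested for probes scored well above background throughout at least 1 group. Accessions without versions were matched to RefSeq genes (GRCr8) for symbols, which named 27460 (44.5%) of the probes. Each gene was read by its probe with the highest mean. Groups were compared with limma 3.58.1 (R 4.3.3, package data.table of version 1.17.8; lmFit and eBayes without covariates, two-sided); p-values were adjusted by the Benjamini-Hochberg method over all genes. Figures used Python 3.11.15, matplotlib 3.10.9 and pandas 2.3.3. The scripts were checked on simulated data.

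The members, the gene lists and the markers were chosen with earlier results of these data known. All members are named, and from each list the genes past the threshold, or otherwise the 2 with the smallest p; for the member with the smallest p, the 3 nearest profiles outside the lists are named. The labels describe 3 biological replicates per group. The replicate numbers are not said to pair the rats. Deviations of same-numbered arrays correlated at 0.0094, 0.16 and 0.035 across genes. Arrays of different number were not set against each other in this way, so these values cannot decide whether a pairing exists. Alternatives were the background correction, scaling, detection filter, probe choice, variance model, replicate block, deposited table and each array left out.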

Additional observations from a re-analysis of the deposited data

How the results depend on the processing

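With 3 arrays per group and slide and treatment together, small differences are limited by the spread between arrays, and Mgst2 by a dim signal. No member was called higher under any of the 16 alternatives. Mgst3 was negative in all 16, and 1 member and 1 member probe, those of Mgst3, were called lower with normexp (-0.43) and when limma's variances were robust with an intensity trend (-0.36). Sign changes were found for Gstt1 with quantile normalization (0.028) and without scaling (0.15), and for Gsto1 without scaling (0.047). The changes without scaling are the shift of 0.16 that this setting gives all genes: relative to the median gene, Gstt1 (-0.0067) and Gsto1 (-0.10) were the same with and without it. Over the fits without 1 array, in which the detection filter was applied anew, differences ran from -0.16 to 0.074 for Gstt1, -0.024 to 0.25 for Gstt2, -0.081 to 0.067 for Gstk1, -0.20 to -0.0028 for Gsto1, -0.023 to 0.14 for Mgst1, -0.12 to 0.13 for Mgst2 and -0.38 to -0.33 for Mgst3. The count of all genes called ran from 9 to 35 in those fits, and 0 members were called. Against 35 genes in the reported analysis (27 higher and 8 lower), normexp called 145, no scaling 1081 (1027 higher and 54 lower) and the trend with robust variances 156. With the replicate number as a block, limma called 0 genes, and Mgst3 had an adjusted p of 0.18. The block takes up degrees of freedom that the reported fit keeps, so a call is harder to reach. The replicate numbers are not said to pair the rats, so that count says little about matched rats. Mgst3 had an adjusted p of 0.11 with the mean of its probes and 0.14 without the detection filter. Among the other lists, the calls of Gstm1, Gstp1, Gsta3 and Abcc4 were lost under the block, with limma adjusted p-values of 0.068 to 0.13. The differences of these genes were the same with and without the block. The standard error fell for Gstp1, from 0.13 to 0.087. It rose for Gstm1 (0.33 to 0.34), Gsta3 (0.063 to 0.065) and Abcc4 (0.12 to 0.13). With fewer degrees of freedom under the block, the lost calls do not show that these differences fail once replicates are matched. The other transferases held 5 calls with normexp and 8 without scaling. Glutathione synthesis and recycling held 2 higher calls without scaling and 1 lower call with the trend, and mercapturate formation and efflux 2 higher calls without scaling.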
